A study of Mus musculus with 6 samples.

Results

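The proteasome genes of mouse liver were followed through the loss of 2 nuclear receptors from hepatocytes. The members were all genes of the deposited table named Psma, Psmb, Psmc or Psmd followed by a number, 39 of 48699 genes. Each of the 39 symbols had 1 row, so no measured value was needed to choose between rows. Of these genes 19 encode the core particle. The other 20 are counted with the regulatory particle, among them Psmd5, Psmd9 and Psmd10, which help assemble it. The double knockout animals were 3 mice lacking both Nr1h4, which encodes the bile acid receptor FXR, and Nr0b2, which encodes the corepressor SHP, in hepatocytes (labelled fxr-/- shp-/-, hepatocyte-specific). The 3 control mice carried floxed, undeleted copies of both genes (Fxrfl/fl Shpfl/fl). Both groups were male C57BL/6 mice, 10 to 12 weeks old, whose livers were taken after an overnight fast of 8 to 10 hours, and the deposited column names give chow for both. The labels do not say what drove the deletion. Whole liver RNA was sequenced, so other liver cells, in which the genes are intact, contributed to each value, and a difference in cell number cannot be told apart from a difference in RNA per cell.

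The proteasome degrades proteins tagged with ubiquitin. Its core particle is a barrel of stacked rings: outer rings of alpha subunits, which form the gate, and inner rings of beta subunits, of which Psmb5, Psmb6 and Psmb7 carry the proteolytic sites. The regulatory particle caps the barrel. Its ring of Psmc ATPases unfolds the substrate, and its Psmd subunits bind and remove ubiquitin. Under interferon, Psmb8, Psmb9 and Psmb10 take the places of Psmb5, Psmb6 and Psmb7 in newly built cores, the immunoproteasome. In mammalian cells NRF1, the product of Nfe2l1, induces proteasome genes through antioxidant response elements when proteasome activity is short.

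Promoters of 8 members are shown because these genes mark the ends of the range described below: the lowest fold change of each main subcomplex (Psma2, Psmb6, Psmc4 and Psmd6), a subunit with no lower level (Psmd2), and catalytic subunits of both kinds (Psmb5, Psmb8 and Psmb9). Each sequence runs 5′ to 3′ on the gene's own strand over 300 bases, 250 before the annotated start and 50 from it on, taken from RefSeq on GRCm38.p6. Psma2 lies at chr13:14612992-14613291 (plus strand), Psmb6 at chr11:70525107-70525406 (plus), Psmb5 at chr14:54617946-54618245 (minus) and Psmb8 at chr17:34197945-34198244 (plus). Psmb9 lies at chr17:34187281-34187580 (minus), Psmc4 at chr7:28050043-28050342 (minus), Psmd6 at chr14:14120896-14121195 (minus) and Psmd2 at chr16:20651402-20651701 (plus). Capitals mark matches, on either strand, to any of 5 motifs: the CCAAT box (CCAAT), the core of the antioxidant response element (TGACNNNGC), the core of the interferon response element (GAAA, then 2 bases of any kind, then GAAA), the ETS core (CCGGAAG) and the GC box (GGGCGG). No match of 1 motif overlapped a match of another in these windows.
Psma2: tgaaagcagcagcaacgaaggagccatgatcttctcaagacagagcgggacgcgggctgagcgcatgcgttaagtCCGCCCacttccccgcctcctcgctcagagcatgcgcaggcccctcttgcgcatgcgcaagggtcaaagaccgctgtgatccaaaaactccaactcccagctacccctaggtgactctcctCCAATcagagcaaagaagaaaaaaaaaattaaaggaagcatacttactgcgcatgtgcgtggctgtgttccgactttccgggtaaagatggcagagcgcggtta
Psmb6: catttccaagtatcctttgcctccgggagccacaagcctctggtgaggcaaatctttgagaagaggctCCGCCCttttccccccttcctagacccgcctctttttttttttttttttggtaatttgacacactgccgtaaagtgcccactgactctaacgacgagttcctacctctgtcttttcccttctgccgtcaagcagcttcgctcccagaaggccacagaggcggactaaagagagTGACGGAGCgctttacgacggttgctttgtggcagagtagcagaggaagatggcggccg
Psmb5: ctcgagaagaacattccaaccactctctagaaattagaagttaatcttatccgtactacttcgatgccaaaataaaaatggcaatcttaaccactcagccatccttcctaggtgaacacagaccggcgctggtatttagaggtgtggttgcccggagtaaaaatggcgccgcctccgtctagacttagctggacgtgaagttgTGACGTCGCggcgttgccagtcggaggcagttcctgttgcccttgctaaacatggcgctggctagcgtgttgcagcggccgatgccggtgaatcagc
Psmb8: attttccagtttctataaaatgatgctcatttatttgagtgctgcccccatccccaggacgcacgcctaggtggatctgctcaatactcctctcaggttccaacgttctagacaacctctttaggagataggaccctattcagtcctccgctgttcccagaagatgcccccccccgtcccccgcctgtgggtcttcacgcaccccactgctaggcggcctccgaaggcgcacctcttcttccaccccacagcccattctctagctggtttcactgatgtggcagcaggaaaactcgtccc
Psmb9: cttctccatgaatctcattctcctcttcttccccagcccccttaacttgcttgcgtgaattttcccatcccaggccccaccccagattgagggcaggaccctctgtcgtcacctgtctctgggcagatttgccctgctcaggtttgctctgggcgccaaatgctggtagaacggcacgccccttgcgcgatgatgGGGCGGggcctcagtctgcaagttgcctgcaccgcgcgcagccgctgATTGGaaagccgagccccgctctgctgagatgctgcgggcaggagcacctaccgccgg
Psmc4: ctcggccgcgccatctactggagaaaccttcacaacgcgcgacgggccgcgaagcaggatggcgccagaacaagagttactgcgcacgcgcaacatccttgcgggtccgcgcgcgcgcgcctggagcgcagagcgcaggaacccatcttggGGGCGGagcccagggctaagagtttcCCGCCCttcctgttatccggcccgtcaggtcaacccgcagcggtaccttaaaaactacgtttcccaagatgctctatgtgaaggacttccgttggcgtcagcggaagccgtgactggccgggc
Psmd6: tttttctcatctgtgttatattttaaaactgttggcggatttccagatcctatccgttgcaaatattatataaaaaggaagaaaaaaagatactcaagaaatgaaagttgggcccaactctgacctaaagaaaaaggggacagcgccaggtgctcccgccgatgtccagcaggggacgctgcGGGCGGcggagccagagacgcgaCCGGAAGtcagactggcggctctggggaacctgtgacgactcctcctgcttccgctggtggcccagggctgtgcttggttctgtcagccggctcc
Psmd2: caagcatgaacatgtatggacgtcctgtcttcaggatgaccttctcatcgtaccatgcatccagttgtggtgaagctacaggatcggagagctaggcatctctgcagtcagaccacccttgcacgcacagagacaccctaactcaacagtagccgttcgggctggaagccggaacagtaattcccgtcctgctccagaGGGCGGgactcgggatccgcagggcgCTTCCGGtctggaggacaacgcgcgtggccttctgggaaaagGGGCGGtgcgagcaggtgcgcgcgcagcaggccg
In Psmb6 the match TGACGGAGC begins 9 bases before the start, and in Psmb5 TGACGTCGC begins 47 bases before it. Psmb8 held no match to any of the 5 motifs in this window. By the GENCODE gene bounds, Psmb8 begins at 34197721 on the plus strand and Psmb9 at 34187764 on the minus strand of chromosome 17. Both windows therefore lie inside the gene, and the sequence before those gene ends was not searched. Psmd6 and Psmd2 both held an ETS core close to the start, 45 and 26 bases before it.

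A promoter was at hand for 31 of the members tested. The ETS core was in the window of 9 of 17 regulatory genes (52.9%) and of 1 of 11 constitutive core genes (9.09%), against 20.6% of the 8822 tested genes with a promoter and 9.93% of all 27025 genes of the promoter table. CCAAT was in 5 of 7 alpha subunit genes (71.4%), 1 of 4 constitutive beta genes and 5 of 17 regulatory genes (29.4%), against 43.1% of tested genes and 41.1% of all genes. The antioxidant response element core was in 5 of 31 members (16.1%: Psmb5, Psmb6, Psmc6, Psmd9 and Psmd12), against 17.1% of tested genes and 14.0% of all. The interferon element core was in 3 of 31 (Psmb3, Psmd4 and Psmd9; 3.76% of tested and 3.99% of all genes), and in none of the 3 inducible subunits. The windows of Psmb8 and Psmb9 lie inside the GENCODE genes, so the sequence before those genes was not searched. GC boxes were in 19 of 31 (61.3%; 67.8% of tested and 38.2% of all genes). These matches describe the letters of the windows and do not show binding.

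Both deleted genes were lower in every double knockout liver: Nr0b2 had 0.216, 0.0734 and 0.293 FPKM in the double knockout, against 14.7, 17.6 and 18.7 FPKM in controls, and Nr1h4 averaged 19.6 ± 3.52 FPKM in the double knockout and 66.5 ± 6.15 FPKM in controls (SD, n = 3 each). FPKM counts fragments per kilobase of transcript and per 1000000 mapped fragments. The smallest steps of the low values correspond to 13.2 to 14.1 times 1000000 fragments in the 6 libraries. This is the mapped depth only if the FPKM were not scaled further between libraries, which is not known here. The sum of FPKM over all genes did differ: 688182, 610618 and 697877 in double knockout replicates 1 to 3, against 702759, 789099 and 841745 in controls. Control replicate 3 stood apart, with a correlation across genes of 0.952 and 0.955 to the other controls, which correlated at 0.983 with each other. Without it, 13 of the 37 tested members had a log2 fold change nearer to 0 by over 1.5 times, 3 one farther from 0 by as much, and 4, all close to 0, changed sign. The 8 hepatocyte markers were all present, and their summed level ran from 31380 to 53030 FPKM in the double knockout and from 58630 to 70810 FPKM in controls, with Alb the most abundant (24950 ± 8925 and 40890 ± 3459 FPKM, the double knockout first; SD, n = 3 each). The groups overlapped in 7 of the 8 hepatocyte markers, all but Alb. Every double knockout value lay below the controls in 11.6% of all tested genes and 23.4% of those with at least 20 FPKM. Cholangiocyte markers summed to between 59.1 and 64.0 FPKM in the double knockout and between 33.8 and 44.2 FPKM in controls. Nearly all of this sum was Spp1, with 55.2, 59.5 and 60.9 FPKM in the double knockout, against 31.1, 34.3 and 42.6 FPKM in controls. Of the 4 cholangiocyte markers tested, 2 lay higher in every double knockout liver and 2 had overlapping groups. Over all tested genes, 11.3% lay higher in this way. Stellate cell markers summed to 46.2 to 117 FPKM in the double knockout and 46.5 to 92.8 FPKM in controls. Endothelial markers summed to 28.0 to 57.6 and 37.04 to 47.9 FPKM, in the same order. The part of these shifts in the proteasome levels was not tested.

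Constitutive proteasome transcripts stood at lower levels in the double knockout livers than in controls, with a median of 0.727 times the control level over the 14 constitutive core genes and 0.745 times over the 6 ATPase genes, but no single gene passed the test. The inducible immunoproteasome subunits and a few regulatory subunits, among them the scaffolds Psmd1 and Psmd2, did not share this. Of the 39 members, 37 had a mean of at least 0.5 FPKM and were tested, and 32 of them had a negative log2 fold change, the double knockout minus control difference of log2(FPKM + 1). The median over the 37 was -0.41, against -0.01 over all 11810 tested genes and -0.18 over the 2907 of them with a mean of at least 20 FPKM, a class to which 33 of the 37 belong. The 1446 genes with at least 50 FPKM, among them 27 of the 37, had a median of -0.25, and 1095 of them were negative. Across all tested genes 50.8% had a negative value, and 69.8% of those with at least 20 FPKM did. In limma's model over all genes 0 of the 37 had an adjusted p under 0.05, where the background was 0.313% of all tested genes and 0.516% of those with at least 20 FPKM. The lowest adjusted p was that of Psmb6, 0.222. At an unadjusted limma p under 0.05, 13 of 37 were lower and 0 higher, against 7.98% of all tested genes lower and 6.97% higher. Among genes with at least 20 FPKM these shares were 16.9% lower and 5.5% higher. This count depended on the scaling and on single libraries: 2 members were lower at that p after rescaling to the same FPKM sum, 4 under quantile normalization and 6 with the length and GC trend removed, against 2.84%, 7.35% and 6.47% of all tested genes in the same order. It ran from 1 without control replicate 2 to 19 without control replicate 1. All 3 double knockout values lay below all 3 controls in 21 of 37 members, and above them in 0, against 11.6% of all tested genes below and 23.4% of those with at least 20 FPKM, and 372 of the 1446 with at least 50 FPKM. Without control replicate 3 the median over the 37 was -0.25.

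**Figure D1:**
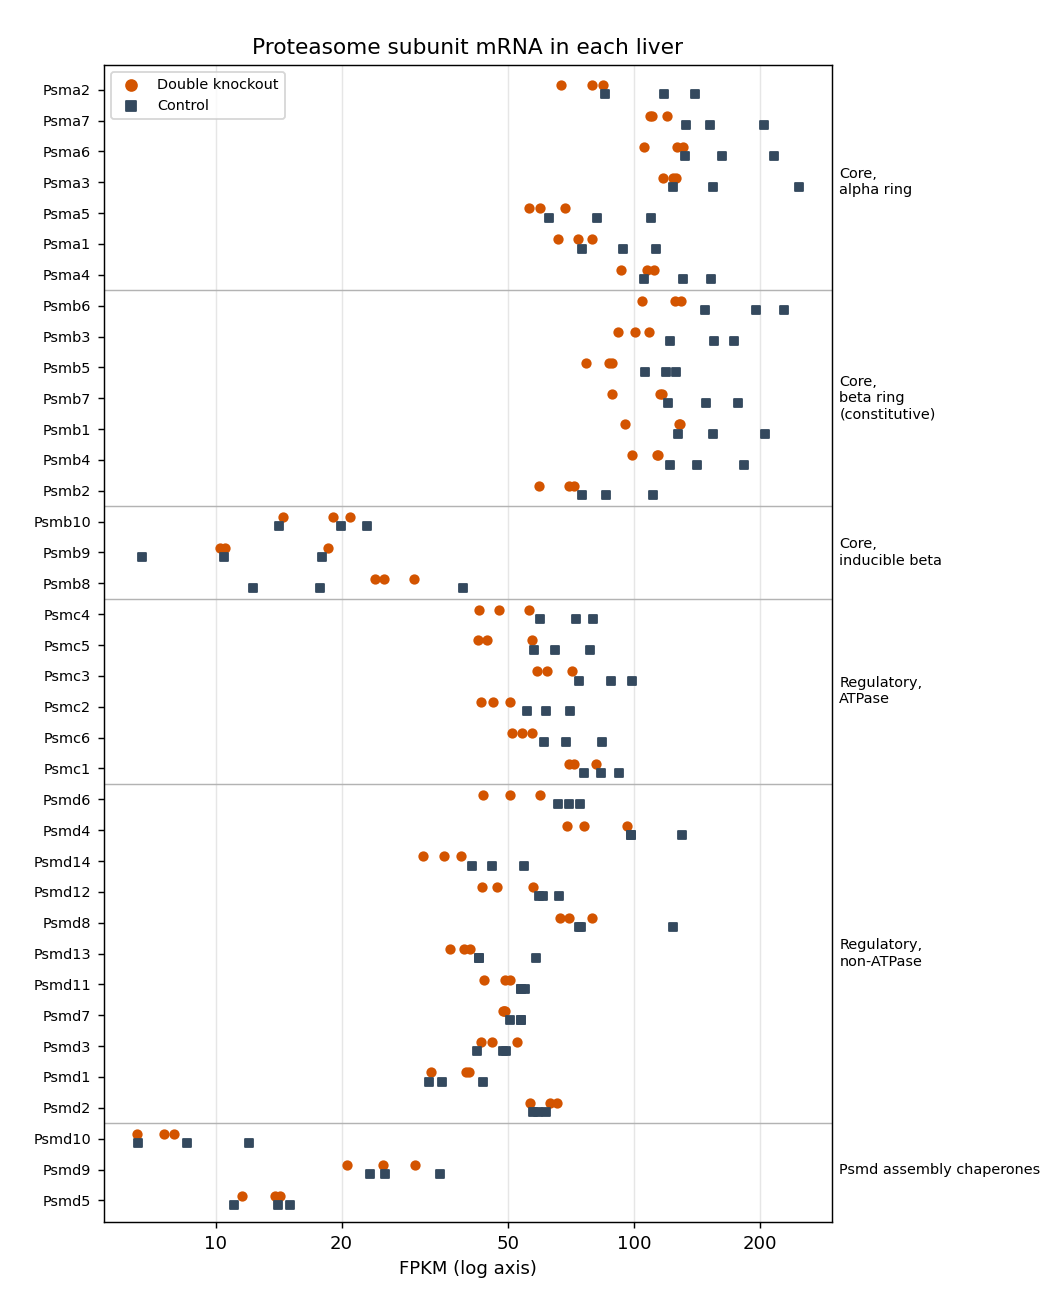
Each row is 1 proteasome gene, with its FPKM on a log axis in the 3 double knockout livers (circles, upper) and the 3 control livers (squares, lower), grouped by subcomplex. Constitutive core genes lie between 55.9 and 247 FPKM with the groups apart in 9 of 14 rows, the double knockout to the left. Among all tested genes with at least 20 FPKM, 23.4% are apart in this way. The inducible beta genes lie between 6.69 and 38.9 FPKM with the groups mixed.

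The other 2 members were not tested. Psma8, an alpha subunit used in the testis, had 0.354, 0.357 and 0.491 FPKM in the double knockout, against 0.423, 0.749 and 0.318 FPKM in controls. Psmb11, the beta subunit of the thymus, was listed at 0 in all 6 libraries.

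The 7 alpha ring genes, which build the gated outer rings, all had negative fold changes (median -0.45, from -0.54 to -0.30). Psma2 had the lowest, with 84.2, 67.0 and 79.3 FPKM in the double knockout, against 85.2, 118 and 140 FPKM in controls. The groups did not overlap, but double knockout replicate 1 and control replicate 1 differed by little (log2 fold change -0.54, with SE 0.21 and limma adjusted p = 0.300). Psma4, with the smallest difference in the ring, had 107, 92.8 and 112 FPKM in the double knockout, against 105, 130 and 153 FPKM in controls (log2 fold change -0.30, with SE 0.18 and limma adjusted p = 0.460, and -0.18 without control replicate 3). Its groups overlapped, since control replicate 1 lay below 2 of the double knockout values. Psma3 had nearly equal values in the double knockout, 124, 117 and 126 FPKM, while its controls spread over 123, 154 and 247 FPKM, and its log2 fold change was -0.45 with control replicate 3 and -0.17 without it. Psma7, the alpha subunit with the next lowest fold change, averaged 113 ± 5.82 FPKM in the double knockout and 163 ± 36.9 FPKM in controls (SD, n = 3 each). Psma6 averaged 121 ± 13.6 and 170 ± 42.6 FPKM, Psma5 61.2 ± 6.34 and 84.5 ± 23.6 FPKM, and Psma1 72.8 ± 6.67 and 94.0 ± 18.9 FPKM, each with the double knockout first (SD, n = 3 each). Without control replicate 3 the log2 fold changes of the 7 lay between -0.38 and -0.17. In all 7 the spread was wider in controls, where replicate 3 was the highest library of every alpha gene.

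The 7 constitutive beta genes also all had negative fold changes (median -0.47, from -0.65 to -0.42). In 6 of them every double knockout value lay below the controls, against 23.4% of tested genes with at least 20 FPKM. Psmb6, which carries the caspase-like site, was the most abundant member and had the lowest fold change of all 37. Its values were 129, 104 and 125 FPKM in the double knockout, against 148, 195 and 227 FPKM in controls (log2 fold change -0.65, with SE 0.20 and limma adjusted p = 0.222). Psmb5, which carries the chymotrypsin-like site, had 88.7, 76.5 and 87.0 FPKM in the double knockout, against 106, 125 and 119 FPKM in controls. This gene did not depend on control replicate 3: its log2 fold change was -0.47 (SE 0.15 and limma adjusted p = 0.227) with that library and -0.45 without it. Psmb7, which carries the trypsin-like site, had 117, 88.4 and 115 FPKM in the double knockout, against 120.3, 148 and 177 FPKM in controls (log2 fold change -0.47, with SE 0.20 and limma adjusted p = 0.331). The groups of Psmb7 were apart only narrowly, between double knockout replicate 1 and control replicate 1. Of the subunits without a proteolytic site, Psmb3 had 108, 91.3 and 100.2 FPKM in the double knockout, against 122, 173 and 155 FPKM in controls (log2 fold change -0.57, with SE 0.18 and limma adjusted p = 0.224). Psmb2, the member of the ring with the smallest difference, had 71.6, 59.4 and 69.8 FPKM in the double knockout, against 75.2, 85.6 and 111 FPKM in controls (log2 fold change -0.42, with SE 0.18 and limma adjusted p = 0.345, and -0.26 without control replicate 3). Psmb4 averaged 109 ± 8.73 and 149 ± 30.9 FPKM, and Psmb1, the only one whose groups overlapped, 117 ± 19.4 and 162 ± 39.6 FPKM, the double knockout first (SD, n = 3 each). Both stood at -0.27 without control replicate 3.

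**Figure D2:**
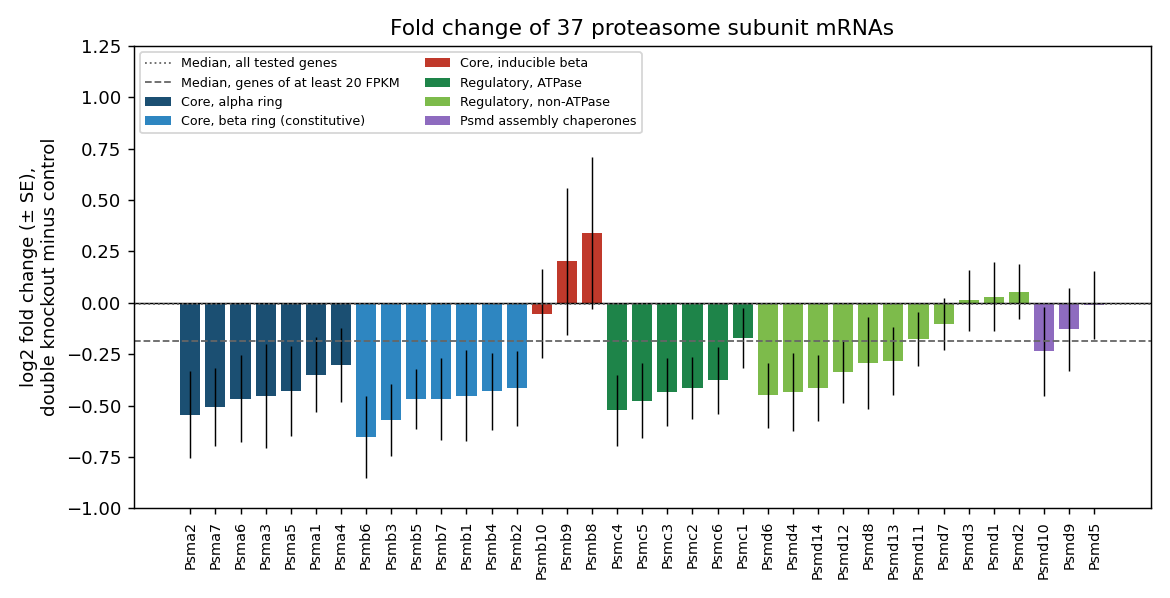
Bars give the log2 fold change of each tested proteasome gene, double knockout minus control on the log2(FPKM + 1) scale, with limma's SE, coloured by subcomplex; lines mark the medians of all tested genes (-0.01) and of those with at least 20 FPKM (-0.18). Constitutive core and ATPase genes lie below 0, the inducible Psmb8 and Psmb9 above it with wide errors, and Psmd1, Psmd2 and Psmd3 near 0.

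The 3 inducible beta genes did not share the lower level. Psmb8 had 24.0, 25.3 and 29.8 FPKM in the double knockout, against 12.3, 17.7 and 38.9 FPKM in controls (log2 fold change 0.34, with SE 0.37 and limma adjusted p = 0.692). Control replicate 3 was the highest library and the other controls the lowest, so the groups overlapped. Without control replicate 3, Psmb8 was the 1 member that lay higher in all double knockout livers, with a log2 fold change of 0.79 (SE 0.18 and limma adjusted p = 0.0819), where 21.6% of all tested genes lay higher in this way. With the FPKM also rescaled to the same sum, or with the length and GC trend also removed, both tried after seeing the data, its limma adjusted p was 0.0282 and 0.0474. Psmb9 had 10.3, 10.6 and 18.5 FPKM in the double knockout, against 6.69, 10.5 and 17.9 FPKM in controls (log2 fold change 0.20, with SE 0.36 and limma adjusted p = 0.817, and 0.54 without control replicate 3). Psmb10 had 21.0, 14.5 and 19.1 FPKM in the double knockout, against 14.2, 19.98 and 23.0 FPKM in controls (log2 fold change -0.05, with SE 0.22 and limma adjusted p = 0.929, and 0.09 without control replicate 3). All 3 were lowest in control replicate 1, and Psmb8 and Psmb9 varied more between libraries than any other tested member, by 3.16-fold and 2.77-fold from lowest to highest.

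Each inducible gene was set against the constitutive gene whose place its product takes, as a ratio of FPKM, which is per length. The ratio Psmb8/Psmb5 was 27.1%, 33.0% and 34.3% in the double knockout, against 11.6%, 14.1% and 32.7% in controls. For Psmb9/Psmb6 the ratio was 7.94%, 10.1% and 14.8% in the double knockout, against 4.52%, 5.37% and 7.89% in controls. For Psmb10/Psmb7 it was 18.0%, 16.4% and 16.6% in the double knockout, against 11.8%, 13.5% and 13.0% in controls. The groups lay apart for Psmb10/Psmb7 and, by a narrow margin, for Psmb9/Psmb6, while for Psmb8/Psmb5 control replicate 3 reached the double knockout range. In log2 units the double knockout minus control differences were 0.84, 0.88 and 0.42 for the 3 pairs in that order, with 2-sided exact permutation p-values of 0.2, 0.1 and 0.1 (0.2, 0.15 and 0.15 adjusted over the 3 ratios). A p of 0.1 is the smallest that 3 against 3 libraries allow. The Psmb10/Psmb7 difference came with little spread within groups (pooled SD 0.08) and lay between 0.36 and 0.46 when any 1 library was left out. Under quantile normalization it was 0.28, with an exact permutation p of 0.2. The groups of Psmb9/Psmb6 overlapped under quantile normalization (0.69, exact permutation p of 0.3) and with the length and GC trend removed (0.84, exact permutation p of 0.2). The Psmb8/Psmb5 difference was 1.29 without control replicate 3 and 0.54 without control replicate 1. Psmb10 itself stood at -0.05 and Psmb7 at -0.47, so most of that pair's difference lay in Psmb7. The constitutive partners are abundant, and tested genes with at least 50 FPKM had a median of -0.25, against -0.01 over all tested genes. The part of this dependence on abundance in the ratios was not tested.

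**Figure D3:**
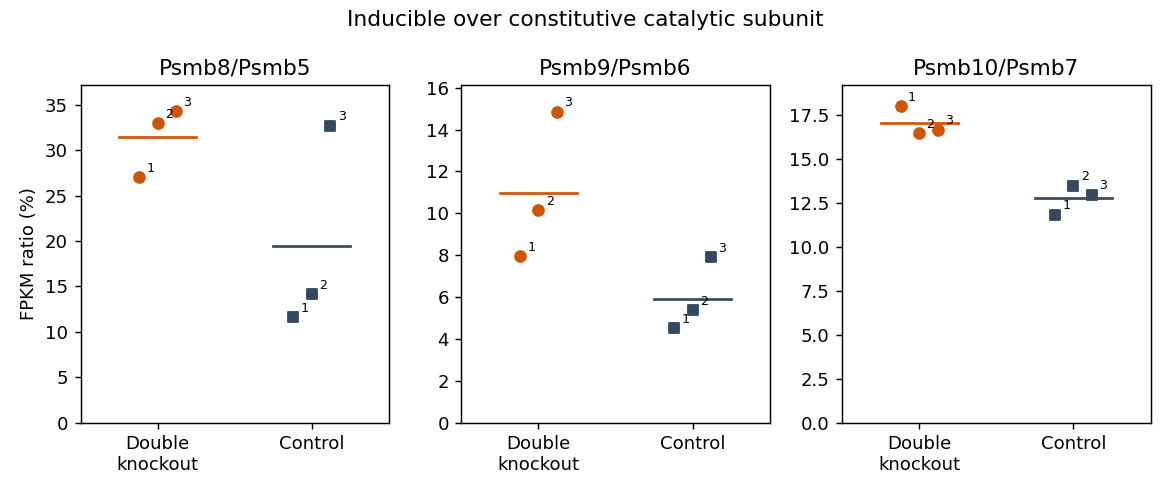
Points are the FPKM ratio, in percent, of each inducible catalytic subunit to its constitutive counterpart in the 3 double knockout (circles) and 3 control livers (squares), numbered by replicate, with group means as lines. The Psmb9/Psmb6 and Psmb10/Psmb7 ratios are apart between the groups, and for Psmb8/Psmb5 control replicate 3, at 32.7%, lies among the double knockout values.

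Immune and interferon genes were read beside these subunits. All 8 Kupffer cell and macrophage markers had positive fold changes, and 1, Mpeg1, passed limma's threshold (log2 fold change 2.71, limma adjusted p = 0.0490). In the other 7 the groups overlapped. Over all tested genes, 0.313% passed that threshold in either direction, and 11.3% had every double knockout value above the controls. Mpeg1 alone had 58.2, 73.5 and 57.3 FPKM in the double knockout, against 5.12, 7.12 and 17.7 FPKM in controls. The summed level of the 8 markers was 127, 226 and 111 FPKM in the double knockout, against 55.0, 46.6 and 107 FPKM in controls. Among controls, replicate 3 was the highest both in this sum and in Psmb8. The double knockout livers did not share this order. There the sum was highest in replicate 2 and lowest in replicate 3, while Psmb8 was highest in replicate 3 (29.8 FPKM, against 25.3 FPKM in replicate 2). Lymphocyte markers were sparse, summing to between 2.22 and 6.85 FPKM in the double knockout and between 3.11 and 3.57 FPKM in controls, with 3 of 10 abundant enough to test. The part of other cell types in the levels of Psmb8, Psmb9 and Psmb10 was not tested. Of 10 genes of the interferon gamma response and antigen loading, 0 passed limma's threshold. At an unadjusted limma p under 0.05, 1 of the 10 was higher, against 6.97% of all tested genes. That gene was Tap1, a subunit of the peptide transporter, which is transcribed divergently from Psmb9: it had 9.55, 10.4 and 10.9 FPKM in the double knockout, against 8.70, 7.66 and 6.83 FPKM in controls (log2 fold change 0.37, limma adjusted p = 0.303). Tap2 had 8.20, 7.69 and 10.7 FPKM in the double knockout, against 7.05, 7.49 and 5.37 FPKM in controls. Every double knockout value lay above the controls in 2 of the 10 genes, below in 1, and 7 overlapped. Over all tested genes these shares were 11.3% above and 11.6% below. B2m, the light chain of MHC class I, averaged 1953 ± 125 FPKM in the double knockout and 2707 ± 446 FPKM in controls (SD, n = 3 each), with every double knockout value below the controls, and Irgm1, an interferon-induced GTPase, 34.9 ± 4.83 and 31.2 ± 8.31 FPKM, the double knockout first.

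The 6 ATPase genes of the regulatory particle had negative fold changes, with a median of -0.42 and a range from -0.52 to -0.17. In 5 of them every double knockout value lay below the controls, against 23.4% of tested genes with at least 20 FPKM. Psmc4 had 56.0, 47.6 and 42.7 FPKM in the double knockout, against 59.5, 72.6 and 79.5 FPKM in controls (log2 fold change -0.52, with SE 0.17 and limma adjusted p = 0.245). Psmc5 averaged 47.9 ± 7.90 and 66.9 ± 10.5 FPKM, Psmc3 63.7 ± 6.44 and 86.8 ± 12.7 FPKM, and Psmc6 54.0 ± 2.95 and 71.1 ± 11.7 FPKM, the double knockout first (SD, n = 3 each). In Psmc2 the highest library was control replicate 2 and not control replicate 3: it had 50.4, 46.0 and 43.0 FPKM in the double knockout, against 61.5, 70.4 and 55.4 FPKM in controls. Its log2 fold change was -0.41 (SE 0.15 and limma adjusted p = 0.279), and -0.50 without control replicate 3. Psmc1 was the exception in size, with 80.8, 69.7 and 71.6 FPKM in the double knockout, against 75.7, 83.3 and 91.96 FPKM in controls (log2 fold change -0.17, with SE 0.15 and limma adjusted p = 0.605), and its groups overlapped. It stood at -0.10 without control replicate 3.

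Among the 11 non-ATPase genes the differences were uneven (median -0.28, from -0.45 to 0.05), with 8 negative and 3 positive. The 3 positive ones were Psmd1 and Psmd2, the large scaffold subunits of the base, and Psmd3 of the lid, and their groups overlapped. Psmd2 had 65.5, 63.0 and 56.3 FPKM in the double knockout, against 58.7, 57.4 and 61.5 FPKM in controls (log2 fold change 0.05, with SE 0.13 and limma adjusted p = 0.875). Psmd1 averaged 37.5 ± 4.19 and 36.8 ± 5.82 FPKM, and Psmd3 47.1 ± 4.96 and 46.6 ± 3.86 FPKM, the double knockout first (SD, n = 3 each). Without control replicate 3 these 3 stood at 0.08 for Psmd2, 0.15 for Psmd1 and -0.06 for Psmd3. At the other end, Psmd6, a subunit of the lid, had 59.5, 50.4 and 43.6 FPKM in the double knockout, against 65.7, 69.7 and 74.0 FPKM in controls (log2 fold change -0.45, with SE 0.16 and limma adjusted p = 0.270). Psmd4, a ubiquitin receptor and the most abundant regulatory gene, had 96.0, 75.7 and 69.0 FPKM in the double knockout, against 98.3, 130 and 97.9 FPKM in controls (log2 fold change -0.43, with SE 0.19 and limma adjusted p = 0.343). Psmd14, the deubiquitinase that removes the ubiquitin chain, had 38.5, 35.1 and 31.2 FPKM in the double knockout, against 41.0, 45.7 and 54.6 FPKM in controls (log2 fold change -0.41, limma adjusted p = 0.303). Its partner in the lid, Psmd7, was the steadiest member, with 49.1, 48.6 and 48.8 FPKM in the double knockout, against 50.6, 53.5 and 53.6 FPKM in controls: the groups did not overlap, yet they were 0.10 apart on the log2 scale (limma adjusted p = 0.725). The remaining lid subunits lay between these, with log2 fold changes of -0.34 for Psmd12, -0.29 for Psmd8, -0.28 for Psmd13 and -0.17 for Psmd11. Psmd8 had 1 control far above the rest, replicate 3 at 124 FPKM against 73.9 and 74.4 FPKM in the other controls and 69.9, 66.4 and 79.3 FPKM in the double knockout. Without that library Psmd8 stood at -0.05, and Psmd13 at -0.14.

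The 3 members Psmd5, Psmd9 and Psmd10 are not part of the finished particle but help assemble its ATPase ring, and they were less abundant. Psmd5 had 14.3, 11.5 and 13.9 FPKM in the double knockout, against 11.1, 15.02 and 14.1 FPKM in controls (log2 fold change -0.01, with SE 0.17 and limma adjusted p = 0.985). Psmd10, also called gankyrin, had 7.51, 6.50 and 7.98 FPKM in the double knockout, against 6.52, 8.55 and 12.0 FPKM in controls (log2 fold change -0.24, with SE 0.22 and limma adjusted p = 0.635). Psmd9 averaged 25.2 ± 4.65 and 27.7 ± 5.79 FPKM, the double knockout first (SD, n = 3 each). The groups overlapped in all 3 genes, and without control replicate 3 Psmd10 stood at -0.03, Psmd9 at 0.03 and Psmd5 at 0.03.

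Set against each other, the core particle had a median log2 fold change of -0.45 over 17 tested genes and the regulatory particle of -0.29 over 20, a difference of -0.16. The difference was -0.06 under quantile normalization and -0.07 with the length and GC trend removed. No test was made of this difference, because subunits are not replicates. The 20 regulatory genes include the assembly factors Psmd5, Psmd9 and Psmd10, with a median of -0.13. The ATPase genes stood at -0.42 and the non-ATPase genes at -0.28. A core minus regulatory difference without the assembly factors is not given here. Groups were apart in 9 of 17 core genes and 12 of 20 regulatory genes, where the double knockout lay below in 11.6% of all tested genes and 23.4% of those with at least 20 FPKM. The levels differed more than the fold changes: the median FPKM over the 6 libraries was 117 for core genes and 55.0 for regulatory genes, and core transcripts were shorter, with a median of 1183 bases against 1887 bases. The mean log2(FPKM + 1) of core genes exceeded that of regulatory genes by 0.70, 0.64 and 0.89 in the double knockout libraries and by 0.62, 0.82 and 1.08 in controls, and these values overlapped between the groups.

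Library by library, relative to the mean of all 6 libraries, the constitutive core genes lay on average at -0.13, -0.39 and -0.18 log2 units in the double knockout and at -0.07, 0.24 and 0.53 in controls. Control replicate 1 was thus within 0.1 of double knockout replicate 1. Of the 37 tested members, 27 were highest in control replicate 3 and 7 in control replicate 2, while 21 were lowest in double knockout replicate 2 and 10 in double knockout replicate 3. The same 2 libraries were the ends of the FPKM sums given above, and the tested genes of at least 20 FPKM moved with them: they lay on average at -0.04, -0.19 and 0.03 in the double knockout and at -0.05, 0.05 and 0.21 in controls. The part of this library-wide shift in the members' levels was not tested as a cause. The fold changes were recomputed under other scalings, given below. Whether these removed the shift for genes as abundant as the members was not tested. Together the 39 members made up 0.372%, 0.359% and 0.343% of the FPKM sum in the double knockout, against 0.375%, 0.399% and 0.438% in controls.

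**Figure D4:**
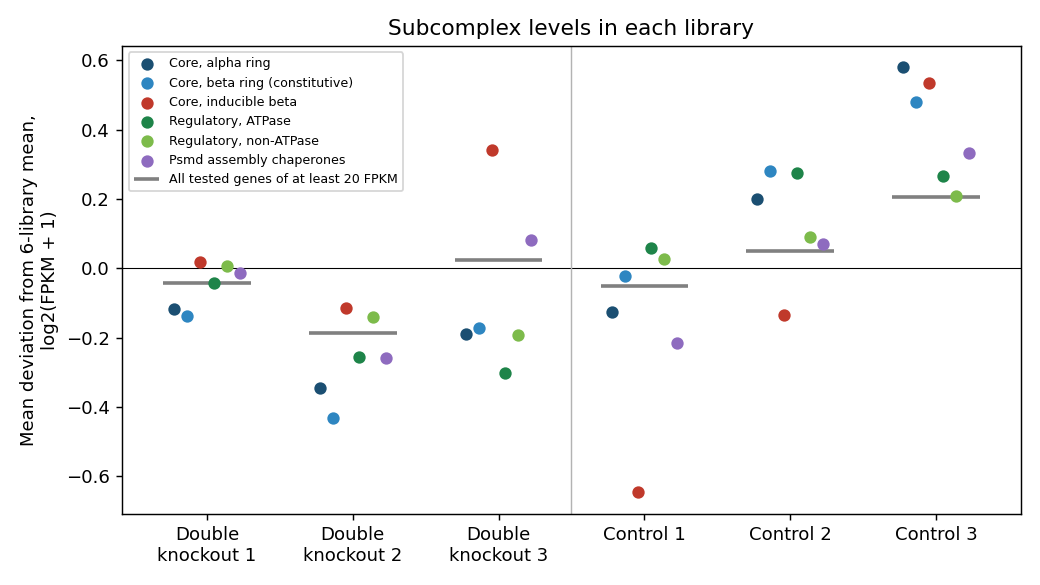
For each library, points give the mean over the tested genes of a subcomplex of log2(FPKM + 1) minus the gene's mean over the 6 libraries, and the grey line gives the same for all tested genes of at least 20 FPKM. The constitutive rings are lowest in double knockout replicate 2 and highest in control replicate 3, with control replicate 1 close to double knockout replicate 1, while the inducible beta genes are lowest in control replicate 1.

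The size of the difference depended on the scaling. When FPKM were rescaled to the same sum in each library, the median of all tested genes moved to 0.16 and that of the 37 members to -0.20, which is -0.36 relative to all genes. Most of all tested genes are less abundant than the members. Genes with at least 20 FPKM stood at -0.18 without rescaling, and their median under the other scalings is not given here. Quantile normalization gave -0.22 for the members, and removing each library's trend on transcript length and GC content gave -0.23. In these 3 settings 26, 28 and 30 of the 37 were negative, in the same order, and 0 passed limma's threshold. Psmc1 was slightly positive after rescaling (0.05) and under quantile normalization (0.00), so only the other 5 ATPase genes were lower in every scaling.

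**Figure D5:**
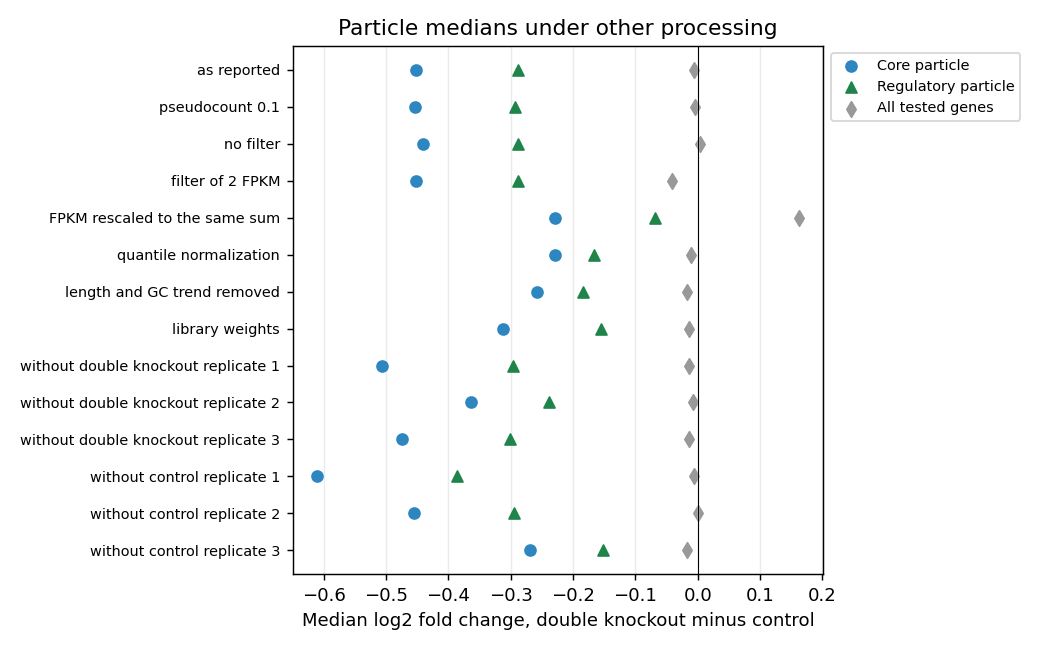
Median log2 fold change, double knockout minus control, of core genes (circles), regulatory genes (triangles) and all tested genes (diamonds) under each processing choice listed on the left. In every setting drawn both particles lie below the median of all genes, with the core below the regulatory particle. Genes as abundant as the members are not drawn apart. The core stands at -0.45 as reported and at -0.27 without control replicate 3.

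Genes of other large housekeeping complexes gave similar medians. The 76 tested cytosolic ribosomal protein genes had a median log2 fold change of -0.37, with 76 negative, and the 76 mitochondrial ribosomal protein genes -0.39, with 73 negative. The groups did not overlap, the double knockout lying below, in 5 of the 76 cytosolic and 38 of the 76 mitochondrial ribosomal genes, against 11.6% of all tested genes and 23.4% of those with at least 20 FPKM. A lower level of about this size was therefore not limited to the proteasome among the lists looked at.

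Proteasome partners that the naming rule leaves out were looked up as well, and 0 of them passed limma's threshold. The 5 assembly factors of the core, among them Pomp (139 ± 12.3 and 165 ± 45.7 FPKM, the double knockout first; SD, n = 3 each), all had negative fold changes, with a median of -0.22. Psmg1 averaged 18.6 ± 2.11 and 19.6 ± 1.94 FPKM in the same order. Adrm1, a ubiquitin receptor of the regulatory particle, had 55.5, 45.9 and 39.9 FPKM in the double knockout, against 59.7, 72.2 and 46.5 FPKM in controls, with overlapping groups. Shfm1, a small subunit of the same particle, averaged 30.6 ± 4.76 FPKM in the double knockout and 34.9 ± 4.45 FPKM in controls (SD, n = 3 each). The alternative caps were mixed. Psme4, an ATP-independent activator, had 23.1, 22.9 and 24.96 FPKM in the double knockout, against 19.2, 16.7 and 14.9 FPKM in controls (log2 fold change 0.46, with SE 0.14 and limma adjusted p = 0.229), with every double knockout value above the controls. The interferon-induced caps Psme1 (93.8 ± 19.0 and 94.8 ± 22.4 FPKM) and Psme2 (71.1 ± 17.9 and 93.4 ± 32.0 FPKM), the double knockout first, overlapped between the groups (SD, n = 3 each).

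A pair of genes of the pathway that controls proteasome gene expression pointed the other way from the subunits. Nfe2l1, which encodes NRF1, had 47.8, 48.1 and 54.1 FPKM in the double knockout, against 37.7, 33.5 and 33.4 FPKM in controls (log2 fold change 0.51, with SE 0.14 and limma adjusted p = 0.186). Ddi2, the protease that cleaves NRF1 into its active form, had 38.6, 42.0 and 39.1 FPKM in the double knockout, against 30.4, 22.6 and 31.2 FPKM in controls (log2 fold change 0.51, with SE 0.16 and limma adjusted p = 0.239). The groups did not overlap in either gene, against 11.3% of all tested genes with every double knockout value above the controls, and neither passed the threshold. Ngly1, the glycanase that removes N-glycans from NRF1, had 17.2, 15.5 and 14.9 FPKM in the double knockout, against 17.8, 15.1 and 19.2 FPKM in controls, with overlapping groups. Vcp, the ATPase that extracts NRF1 from the membrane of the endoplasmic reticulum and the most abundant gene of this list, averaged 91.2 ± 8.80 FPKM in the double knockout and 86.6 ± 13.1 FPKM in controls (SD, n = 3 each). Of the 6 genes of the list, 0 passed the threshold in either direction. The fold changes of this list and of the partners above are given only without rescaling or removal of the length and GC trend. Transcripts of the list had a median length of 4059 bases, against 1581 bases for the 37 members. The part of that trend in the opposite direction of Nfe2l1 and Ddi2 was not tested.

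On the substrate side, the 4 genes read for the supply and activation of ubiquitin had negative fold changes (median -0.46), 0 past limma's threshold. Ubb, a polyubiquitin gene, had 158, 136 and 113 FPKM in the double knockout, against 189, 231 and 197 FPKM in controls (log2 fold change -0.61, with SE 0.18 and limma adjusted p = 0.210). Rps27a, which encodes ubiquitin fused to a ribosomal protein, averaged 274 ± 58.2 and 368 ± 158 FPKM, the double knockout first, with overlapping groups (SD, n = 3 each). The 11 shuttle factors and deubiquitinases lay on both sides of 0 (median 0.05), 4 negative and 7 positive, with Rad23b at 72.9 ± 5.45 and 62.0 ± 2.95 FPKM and Ubqln1 at 46.5 ± 3.77 and 43.3 ± 8.29 FPKM, the double knockout first (SD, n = 3 each).

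A comparison by the authors gave the same count: the authors' deposited table marked 0 of the 37 tested members as significant, beside 4.58% of its 11844 tested genes. In the authors' deposited table the lowest q-value was that of Psmb6 (0.0613), followed by Psmb3 (0.109) and Psma2 (0.118). It rests on the same 6 libraries. The members lie on 16 chromosomes, with Psmb8 and Psmb9 close together on chromosome 17 on either side of Tap1. In the GENCODE annotation, 9 members overlap another protein-coding gene, among them Psmd9 with Hpd, Psmb7 with Nek6 and Psmb9 with Tap1, each on the opposite strand, and Psma2 with AW209491 on the same strand. Because the sources used here do not say how shared reads and strand were counted, those levels are less certain. The 4 annotated pseudogene rows of members had at most 0.141 FPKM.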

How the data were processed

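Liver RNA of 6 mice was sequenced, 3 per group, with groups and replicate numbers taken from the sample titles. Per the labels' protocols, the libraries came from flash-frozen liver and an Illumina kit that keeps strand. Cuffdiff 2.2.1, Picard 1.119, STAR 2.4.2a, Trimmomatic and bcl2fastq 2.17.1.14 appear in the submitters' processing notes with the build GRCm38 (mm10), without roles. No source used here gives the gene annotation or says whether counting used strand. The authors deposited FPKM for 48699 genes per library, and a comparison table with group FPKM, p-values and q-values in Cuffdiff's layout per the file headers. All 6 value columns were used.

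FPKM are not counts, so limma 3.58.1 (R 4.3.3) was run on log2(FPKM + 1) over the 11810 genes averaging 0.5 FPKM or more, with a mean-variance trend and Benjamini-Hochberg adjustment over all of them at 0.05. The pseudocount shrinks the fold changes of low genes. Nothing says that replicates came from separate litters or days, and each library was taken as 1 mouse, so the p-values measure the spread between these samples, which may be in part technical. Lengths (longest coding transcript), GC content and overlaps came from GENCODE M21 on GRCm38, where 48343 identifiers were found, and promoters from RefSeq. Depth was estimated from the lowest FPKM steps in genes with 1 transcript over 1500 bases, taking the FPKM as not scaled further between libraries. At that depth the fewest fragments behind a value of a tested member are about 119, for Psmb9 in control replicate 1. The members and lists were chosen with earlier results of these data known. Per-library values are given, by rule, for the highest and lowest fold change of each subcomplex, the catalytic subunits and the most abundant members. The 2 most abundant genes of each related list are given per library or as means, cell type marker lists as sums, and further genes were picked with their values in view. A gene of the ubiquitin list is not reported here and was left out of that list. Alternatives tried were a pseudocount of 0.1 or 0.25, leaving out the filter or raising it to 2 FPKM, rescaling to the same sum, quantile normalization, removal of the length and GC trend, library weights, a replicate block and each library left out.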

Additional observations from a re-analysis of the deposited data

How the results depend on the processing

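The members' median log2 fold change stayed negative under every alternative run, and 0 members were called except in the pair of alternatives named last, which were chosen after seeing the data. The count of called genes over all genes was 37, and 2 with no filter, 74 after rescaling to the same sum, 563 with library weights, 13 with the replicate block and the length and GC trend removed, and between 2 and 242 when 1 library was left out, highest without control replicate 3. The all-member median was -0.20 after rescaling, -0.22 under quantile normalization and -0.23 with the length and GC trend removed, with or without the replicate block; it lay between -0.49 and -0.25 with 1 library left out. The regulatory median was -0.068 after rescaling, -0.17 under quantile normalization, -0.16 with library weights and between -0.39 and -0.15 with 1 library left out; the core median lay between -0.61 and -0.27 and core minus regulatory between -0.22 and -0.12 with 1 library left out. The core median was -0.23 after rescaling and under quantile normalization and -0.26 with the length and GC trend removed, and core minus regulatory was -0.062 under quantile normalization and -0.074 with that trend removed. Causes were not tested.

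Some named genes near 0 changed sign, with no call. Psmb10 was positive after rescaling (0.16), under quantile normalization (0.019), with library weights (0.044) and with the length and GC trend removed, with or without the replicate block (0.11), and ran from -0.24 to 0.093 with 1 library left out. Psmd5 was at 0.20 after rescaling and 0.028 under quantile normalization, and ran from -0.13 to 0.077; Psmc1 was at 0.048 and 0.0017. Psmb8 ran from -0.0040 to 0.79 and Psmb9 from -0.11 to 0.54, lowest without control replicate 1. Without control replicate 3, rescaling called 385 genes and removing the length and GC trend 229, each with 1 member, Psmb8 (0.94, limma adjusted p = 0.0282, and 0.87, limma adjusted p = 0.0474; over its other alternatives the adjusted p was 0.0819 or above). There the medians were, after rescaling and after trend removal in that order, -0.093 and -0.17 for all members, -0.11 and -0.19 for the core and 0.0100 and -0.10 for the regulatory particle, where all genes stood at 0.11 and -0.03. In the same 2 settings Psmb10 was at 0.24 and 0.19 and Psmd10 at 0.12 and 0.040, and after rescaling Psmc1 was at 0.060 and Psmd5 at 0.18.

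Same-numbered libraries correlated at 0.22, -0.075 and 0.301 in their deviations from the group means, the last being the highest of any pair. Double knockout replicate 1 correlated best with control replicate 2 (0.254). With 3 libraries per group, these values cannot tell whether the numbers pair the mice. With the replicate block 50 genes and 0 members were called, and the 3 medians were as without it. At the lowest, Psmb9 has about 119 fragments, Psmb8 264 and Psmb10 246. The part of counting error in the spread of these genes was not tested.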
